A study of Homo sapiens with 12 samples.

Results

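The PFKFB genes encode the bifunctional enzymes that make and break down fructose-2,6-bisphosphate, and 3 of them, PFKFB2, PFKFB3 and PFKFB4, were followed here in pancreatic cancer cells under low oxygen and ARNT knockdown. They were taken by symbol from the 57820 gene IDs of the deposited count files, and all 3 passed the filter on low counts, which left 16999 genes for testing. The cells were AsPC-1, an established human pancreatic cancer line. Cells in triplicate wells received by lipid transfection an siRNA of scrambled sequence (siControl) or one that targets ARNT (siARNT). On the next day each culture was divided, and 1 portion was held at 1% O2 for 24 h (hypoxia) while the other stayed in normal culture at 21% O2 (normoxia), and RNA was taken 48 h after transfection. This gave 4 groups of 3 libraries, lettered A, B and C: the siControl cells in normoxia and in hypoxia, and the siARNT cells in normoxia and in hypoxia. All 4 groups therefore share the line, the transfection and the harvest time, and the controls had also been transfected. The results describe 1 cell line, and how many siRNA sequences were used against ARNT and whether the wells were handled on separate days are not given in the sources used here, so p-values measure only the spread between these libraries.

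Fructose-2,6-bisphosphate is the strongest allosteric activator of phosphofructokinase 1, the committed step of glycolysis, and an inhibitor of fructose-1,6-bisphosphatase, the opposing enzyme of gluconeogenesis. Each PFKFB protein carries a kinase that makes the metabolite and a phosphatase that removes it, and the family members differ in the balance between them: PFKFB3 strongly favours the kinase, PFKFB2 is known as the heart form and PFKFB4 as the testis form. PFKFB3 and PFKFB4 are known target genes of the hypoxia-inducible factors (HIF), which bind DNA as pairs of an alpha subunit and ARNT, so knockdown of ARNT lowers the shared partner. RNA levels do not report the activity of either domain or the amount of the metabolite.

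Each library held between 38.5 and 84.3 M counts on genes. Levels are given as counts per M (CPM) with TMM scaling, and as CPM per kb of exon where genes are set beside each other. ARNT RNA stood at 62.4 ± 1.53 CPM in normoxia siControl and 13.4 ± 0.56 in normoxia siARNT, and at 69.1 ± 3.81 in hypoxia siControl and 15.3 ± 1.04 in hypoxia siARNT (mean ± SD, n = 3 in each group). Of the epithelial markers KRT8, KRT18, KRT19, EPCAM, MUC1, CEACAM5 and CEACAM6, all 7 were at 10 CPM or more in every library. Their levels moved with the groups: edgeR called 3 higher and 2 lower with siARNT in normoxia, where 20.2% of all tested genes were called. It called 3 lower with siARNT in hypoxia (29.1% of all tested genes called) and 1 higher in hypoxia siControl (25.3% called). Among the 7 markers MUC1 rose 2.55-fold in hypoxia siControl, and KRT8 stood at 1894, 1927 and 3459 CPM in the normoxia siARNT libraries. The part of these shifts in the PFKFB results was not tested. The 6 measured markers of fibroblasts, leukocytes and acinar cells were each under 1 CPM in every library, and their summed level was 0.281 to 0.878 CPM. In these bulk samples, fewer cells of a kind and less RNA per cell cannot be told apart.

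PFKFB4 was low in normoxia, rose 11.3-fold in hypoxia in control cells, and remained low in hypoxia when ARNT was knocked down. PFKFB3 rose 1.8-fold in hypoxia in control cells and was near its normoxic level in hypoxia after ARNT knockdown. PFKFB2, the member with the highest level in normoxia, did not pass the test for a hypoxia change in either siRNA group and was lower after ARNT knockdown at both oxygen levels. In hypoxia siControl cells, 2 of the 3 members were called higher at an adjusted p under 0.05 in edgeR's quasi-likelihood test with Benjamini-Hochberg adjustment over all tested genes, where 10.4% of all tested genes were called higher and 25.3% were called in either direction. In siARNT cells, hypoxia called 0 of the 3 by edgeR, against 4.09% of all tested genes, and 0 of the 3 had an unadjusted p under 0.05 or were called by DESeq2. Knockdown of ARNT called 1 of the 3 lower in normoxia, where 20.2% of genes were called and 10.8% were called lower. In hypoxia it called all 3 lower by edgeR, where 29.1% of genes were called and 14.7% were called lower. DESeq2 called 2 of the 3 there, and 8 of 21 alternatives lost the PFKFB2 call. The interaction, the hypoxia response of siARNT cells with that of siControl cells subtracted, was called in 2 of the 3, both negative, against 4.69% of tested genes and 2.19% with a negative sign. These comparisons share libraries with each other, so their values are given side by side and not as separate support.

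PFKFB4 (ENSG00000114268.7) was the member that moved most. Its counts in normoxia siControl were 75, 58 and 45 in libraries A, B and C, or 1.01, 1.27 and 0.835 CPM. In hypoxia siControl the counts were 758, 658 and 452, or 11.4, 14.1 and 9.70 CPM, so every hypoxic control library lay at least 7.65 times above every normoxic one. Hypoxic libraries all above the normoxic ones were found for 21.5% of tested genes in siControl. The means were 1.04 ± 0.218 and 11.8 ± 2.23 CPM (SD, n = 3), a ratio of 11.3, and the log2 fold change was 3.51 (SE 0.283, adjusted p = 6.46e-06 in edgeR's quasi-likelihood test). Ordered by log2 fold change, PFKFB4 stood at place 8 from the top of the 16999 tested genes.

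In siARNT cells the same gene had 88, 92 and 44 counts in normoxia and 70, 57 and 97 in hypoxia. These correspond to 1.03, 1.59 and 0.863 CPM in normoxia and 1.32, 1.34 and 2.36 CPM in hypoxia, and the groups overlapped. Library C of hypoxia siARNT was the highest of these 6. The log2 fold change was 0.52 (SE 0.284, adjusted p = 0.322 in edgeR), and without that library it was 0.20. With an added correction for GC content it was 0.66 with an adjusted p of 0.0171, where the alternatives together spanned adjusted p values of 0.017 to 0.667. In log2 terms the siARNT cells held 0.149 of the control cells' hypoxia change.

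Between the siRNAs, PFKFB4 in hypoxia was 2.82 lower on the log2 scale in siARNT than in siControl (log2 fold change -2.82, SE 0.273, adjusted p = 1.49e-05 in edgeR). The highest hypoxia siARNT library, at 2.36 CPM, was under the lowest hypoxia siControl library, at 9.70 CPM, and the ratio of means was 0.142. All siARNT libraries lay below all siControl libraries in hypoxia for 20.2% of tested genes. In normoxia the siRNA groups overlapped and the log2 fold change was 0.17 (SE 0.289, adjusted p = 0.699), a value whose sign turned with the GC correction (-0.09). The interaction was -2.99 (SE 0.394, adjusted p = 0.00153), place 8 from the lowest of all tested genes.

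PFKFB3 (ENSG00000170525.14), the form with the strongest kinase, was present at a moderate level in every library. In normoxia siControl it had 1849, 1250 and 1359 counts, or 24.8, 27.3 and 25.2 CPM. In hypoxia siControl it had 3056, 2337 and 1992 counts, or 46.1, 50.2 and 42.8 CPM. All 3 hypoxic libraries were above all 3 normoxic ones, as for 21.5% of tested genes. The means were 25.8 ± 1.35 and 46.4 ± 3.73 CPM, a ratio of 1.8, with a log2 fold change of 0.85 (SE 0.097, adjusted p = 8.86e-05 in edgeR). This was place 763 from the top of all tested genes.

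In siARNT cells PFKFB3 had 21.7, 26.7 and 22.4 CPM in normoxia and 22.6, 22.4 and 26.0 CPM in hypoxia, which overlap almost completely. The log2 fold change was 0.01 (SE 0.097, adjusted p = 0.974 in edgeR), and its sign turned in 4 of 22 alternatives. With GC correction and the replicate letter as a block it was 0.20 and called (adjusted p = 0.0488, within 0.0488 to 1.0 over the alternatives). In hypoxia the siARNT libraries were all below the siControl libraries, as for 20.2% of tested genes. The ratio of means was 0.511 and the log2 fold change was -0.97 (SE 0.097, adjusted p = 2.02e-05 in edgeR). In normoxia the siRNA groups overlapped, at 25.8 ± 1.35 and 23.6 ± 2.69 CPM, with a log2 fold change of -0.13 (SE 0.097, adjusted p = 0.339). The exons of PFKFB3 have a GC content of 58.4%, and that last comparison passed the test only with the GC correction, alone or with the replicate letter as a block, where it was -0.51 in both (adjusted p = 0.000642 and 3.81e-05, within a range over the alternatives of 3.81e-05 to 0.646). The interaction was -0.84 (SE 0.137, adjusted p = 0.00602).

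PFKFB2 (ENSG00000123836.10) went the other way from its relatives in control cells, and by little. It had 97.9, 91.2 and 98.0 CPM in normoxia siControl and 87.2, 77.4 and 81.3 CPM in hypoxia siControl. The groups did not overlap, which was so for 46.8% of all tested genes and with hypoxia lower for 25.3%. The log2 fold change was -0.22 (SE 0.076) and the adjusted p was 0.0511, just past the threshold, with 0.0127 to 0.205 over the alternatives, 7 of 22 of which called it. In siARNT cells it had 76.3, 68.5 and 77.9 CPM in normoxia and 75.7, 68.4 and 64.2 CPM in hypoxia, with a log2 fold change of -0.10 (SE 0.077, adjusted p = 0.507).

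Knockdown of ARNT lowered PFKFB2 in normoxia, from 95.7 ± 3.88 to 74.2 ± 5.03 CPM (log2 fold change -0.37, SE 0.076, adjusted p = 0.00685 in edgeR), and all 21 alternatives kept that call. The siARNT libraries were all below the siControl ones there, as for 23.3% of tested genes. In hypoxia the means were 82.0 ± 4.92 and 69.4 ± 5.84 CPM, and the lowest siControl library, at 77.4 CPM, was close to the highest siARNT library, at 75.7 CPM. The log2 fold change was -0.24 (SE 0.077, adjusted p = 0.0346), and 8 of 21 alternatives lost this call. They include the fits without library A or C of hypoxia siControl (-0.20 and -0.25) and without library B or C of hypoxia siARNT (-0.23 and -0.19). The interaction for PFKFB2 was 0.13 (SE 0.108, adjusted p = 0.513).

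**Figure D1:**
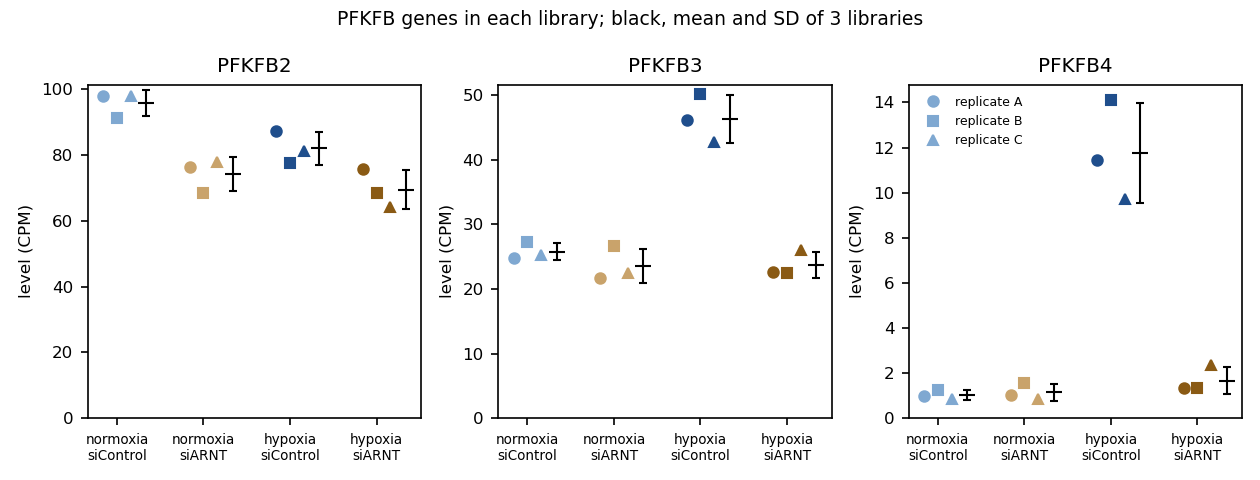
Level of PFKFB2, PFKFB3 and PFKFB4 (CPM, linear axes from 0, a separate scale for each gene) in the 12 libraries of 4 groups; each symbol is 1 library, its shape gives the letter, and the black bars are the mean and SD of 3 libraries. The hypoxia siControl libraries stand above all others for PFKFB3 (42.8 to 50.2 CPM) and PFKFB4 (9.70 to 14.1 CPM), while PFKFB2 is highest in normoxia siControl (91.2 to 98.0 CPM).

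**Figure D2:**
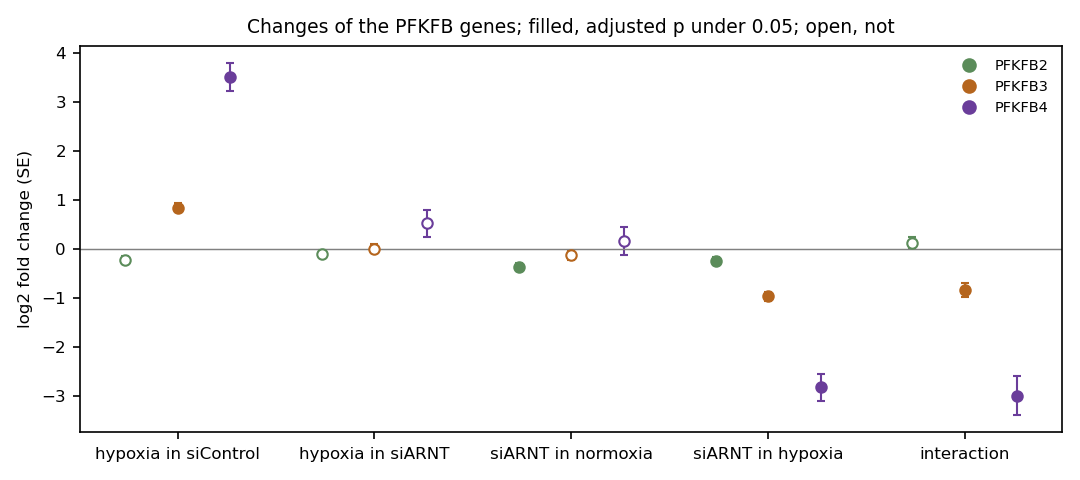
Log2 fold change of each PFKFB gene in the 5 comparisons, with bars of 1 SE; filled points passed an adjusted p under 0.05 in edgeR and open points did not. PFKFB4 has the largest values of the 3 genes in hypoxia siControl (3.51), siARNT in hypoxia (-2.82) and the interaction (-2.99).

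The proportions of the members changed with the condition, while their order by group mean per kb was the same in all 4 groups. Per kb of exon, normoxia siControl cells held 9.39 ± 0.38 CPM per kb of PFKFB2, 4.22 ± 0.22 of PFKFB3 and 0.170 ± 0.0357 of PFKFB4, and these ranges did not overlap. In hypoxia siControl the levels were 8.04 ± 0.483, 7.58 ± 0.61 and 1.93 ± 0.366 CPM per kb. PFKFB2 and PFKFB3 then overlapped, and in library B PFKFB3 was the higher of the pair, at 8.21 against 7.59 CPM per kb. Without division by length PFKFB2 was the higher in that library, with 3605 counts against 2337. PFKFB1, the liver and muscle form and the remaining family member, had only 4 to 11 counts in a library, was not tested, and lay at 0.0609 to 0.0859 CPM per kb by group mean.

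As a share of the reads per kb of the 3 members together, PFKFB2 held 69.4, 65.7 and 69.3% in normoxia siControl and 47.6, 41.9 and 48.2% in hypoxia siControl. PFKFB3 held 29.4, 32.8 and 29.7% in normoxia siControl and 42.0, 45.3 and 42.3% in hypoxia siControl. PFKFB4 went from 1.19, 1.52 and 0.986% to 10.4, 12.8 and 9.60%. For each gene the control groups did not overlap, with mean differences of -22.2, 12.5 and 9.70 percentage points. Each gave p = 0.1 in an exact two-sided permutation test, the smallest that 3 against 3 libraries allow, and 0.2 after adjustment over 12 tests, so this test could not have passed 0.05. In hypoxia siARNT the mean shares were 62.1 ± 4.09, 35.4 ± 3.21 and 2.50 ± 0.898%, against 64.3 ± 4.35, 34.1 ± 3.82 and 1.68 ± 0.548% in normoxia siARNT. Those differences gave exact permutation p-values of 0.5, 0.5 and 0.3 (adjusted 0.5, 0.5 and 0.36). The summed level of the 3 genes was 13.8 ± 0.132 CPM per kb in normoxia siControl, 17.6 ± 0.864 in hypoxia siControl, 11.3 ± 0.127 in normoxia siARNT and 11.0 ± 0.374 in hypoxia siARNT. It was thus highest in the hypoxic control cells, whose lowest library (16.6) was above the highest of the other groups (13.9).

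**Figure D3:**
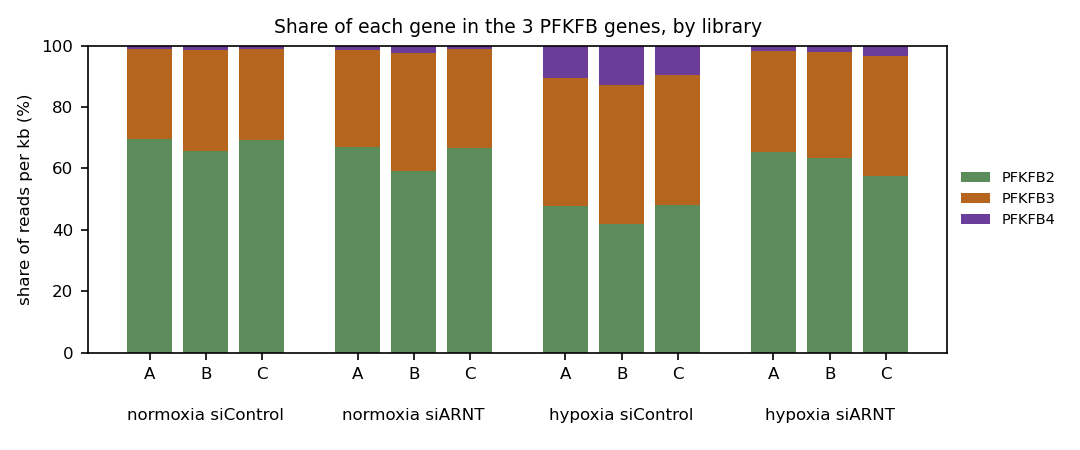
Share of PFKFB2, PFKFB3 and PFKFB4 in their summed reads per kb of exon (%), as stacked bars from 0 to 100 for each of the 12 libraries. The 3 hypoxia siControl bars have the smallest PFKFB2 part (41.9 to 48.2%) and the largest PFKFB4 part (9.60 to 12.8%).

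HIF pairs with ARNT bind the core letters ACGTG or GCGTG, so the 250 bases before the annotated starts of the 2 genes that rose in hypoxia are shown, from the RefSeq annotation of GRCh38.p14 and written 5′ to 3′ on the gene's strand. Capitals mark the core letters, on either strand. The PFKFB4 window is chr3:48556804-48557053 on the minus strand. The PFKFB3 windows, which belong to different annotated starts, are chr10:6144671-6144920 and chr10:6202682-6202931 on the plus strand.
PFKFB4: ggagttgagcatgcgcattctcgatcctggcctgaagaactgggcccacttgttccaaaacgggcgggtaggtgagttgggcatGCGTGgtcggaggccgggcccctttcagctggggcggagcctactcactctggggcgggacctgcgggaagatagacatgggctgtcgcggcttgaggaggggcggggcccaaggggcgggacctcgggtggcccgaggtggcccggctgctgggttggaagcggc
PFKFB3, first start: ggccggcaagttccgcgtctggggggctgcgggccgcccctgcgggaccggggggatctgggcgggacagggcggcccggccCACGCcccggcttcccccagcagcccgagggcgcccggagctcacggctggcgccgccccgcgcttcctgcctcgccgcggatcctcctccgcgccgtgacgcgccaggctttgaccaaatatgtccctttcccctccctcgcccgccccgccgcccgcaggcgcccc
PFKFB3, second start: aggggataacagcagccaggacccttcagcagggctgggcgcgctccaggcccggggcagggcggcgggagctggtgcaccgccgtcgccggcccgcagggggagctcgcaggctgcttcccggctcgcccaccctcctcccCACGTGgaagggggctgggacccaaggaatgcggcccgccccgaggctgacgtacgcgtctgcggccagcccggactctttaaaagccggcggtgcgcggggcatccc

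The PFKFB4 window holds GCGTG once, on the gene's strand, with its first base at -166 from the start. The first PFKFB3 window holds GCGTG once, on the opposite strand, so that it reads CACGC here, at -168. The second holds ACGTG on both strands at -107 and -108, which overlap in the palindrome CACGTG. Among 35116 annotated promoter windows of that length, 18.5% hold ACGTG, 32.2% hold GCGTG and 43.2% hold at least 1 of them on either strand, so a match of this kind is common. It is a description of letters, and no binding was measured here. No window was available for PFKFB2, so the windows cannot be compared between members that rose in hypoxia and the member that did not.

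The genes whose pattern over the 12 libraries was closest to each member were taken by the root mean square difference of centred log2 CPM among the 12660 tested genes that averaged 1 CPM or more. For PFKFB4 these were NDRG1 (0.261), EGLN3 (0.363), the antisense gene PDK1-AS1 (0.388), ENO2 (0.404) and CA9 (0.409). NDRG1 went from 134.6 to 1146 CPM in control cells, a log2 fold change of 3.09 in hypoxia siControl against 0.78 in siARNT cells, while PFKFB4 had 3.51 and 0.52. Whether counting used strand is not given in the sources used here, so PDK1-AS1 reads may include reads of its partner. For PFKFB3 the closest were ZNF395 (0.066), FOSL2 (0.082), RNASET2 (0.088), TMEM139 (0.091) and CALCOCO1 (0.091), whose log2 fold changes in hypoxia siControl were 0.69 to 0.95. For PFKFB2 they were FBXW2 (0.029), NUP50 (0.036), COG5 (0.04), UBA2 (0.044) and SSR3 (0.044), all lower after ARNT knockdown in normoxia by log2 values of -0.27 to -0.41. Because these genes were picked by closeness over the same libraries, changes like those of the member follow from the choice.

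Around the metabolite, 5 of 7 listed genes were tested: the phosphofructokinase 1 subunits PFKL, PFKM and PFKP, which fructose-2,6-bisphosphate activates, FBP1, which it inhibits, and TIGAR, a phosphatase that can remove it. PFKFB1 and FBP2, a second fructose-1,6-bisphosphatase with at most 3 counts in a library, were not tested. In control cells hypoxia raised 1 and lowered 1 of the 5, where 25.3% of all tested genes were called. Over the alternatives 0 to 3 were called higher and 1 to 2 lower. The 5 genes had a median log2 fold change of 0.14 against 0.02 over all tested genes. TIGAR fell, from 7.03 ± 0.732 CPM in normoxia to 3.48 ± 0.472 CPM in hypoxia (log2 fold change -1.01, SE 0.173, adjusted p = 0.00125 in edgeR). PFKP, the most abundant of the 3 subunits per kb, rose from 209.7 ± 14.3 to 289.8 ± 20.01 CPM (log2 fold change 0.47, adjusted p = 0.0288), a call that 5 of 22 alternatives lost. PFKL had the highest value of the 5, 1.10 (SE 0.408, adjusted p = 0.0717), with 9.90 to 13.5 CPM in normoxia and 18.0 to 32.0 CPM in hypoxia, and was not called. PFKM had -0.19 (adjusted p = 0.183), and FBP1 had 0.14 (adjusted p = 0.393).

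In siARNT cells hypoxia called 0 of these 5 genes by edgeR and 0 by DESeq2, where edgeR called 4.09% of all tested genes. Of the 5, 1 had an unadjusted p under 0.05, and their median was -0.25 against -0.04 over all tested genes. ARNT knockdown called 29.1% of all tested genes in hypoxia and 20.2% in normoxia. Under ARNT knockdown in hypoxia, TIGAR was higher by 0.66 (adjusted p = 0.0141, a call lost without library B or C of hypoxia siControl or A of hypoxia siARNT) and FBP1 was lower by 0.88 on the log2 scale (log2 fold change -0.88, SE 0.107, adjusted p = 8.64e-05). FBP1 was at 57.1 to 72.3 CPM in the hypoxia siControl libraries and 33.5 to 36.2 CPM in the hypoxia siARNT libraries. In normoxia FBP1 was also lower with the knockdown (-0.41, adjusted p = 0.0214, a call lost without library B of normoxia siControl or A or C of normoxia siARNT). PFKL was called higher there (1.30, SE 0.408, adjusted p = 0.0454), but its 3 normoxia siARNT libraries ran from 17.7 to 46.1 CPM and 9 of 21 alternatives lost the call, among them the fit without library B of normoxia siARNT (0.69 for PFKL siARNT in normoxia). The interaction was called in 0 of the 5 by edgeR, against 4.69% of all tested genes, and in 1 by DESeq2. It had 4 at an unadjusted p under 0.05. Its log2 values were -1.40 for PFKL (SE 0.57, adjusted p = 0.194), 0.76 for TIGAR (adjusted p = 0.1), -0.64 for PFKP (0.0946) and -0.48 for FBP1 (0.0993).

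**Figure D4:**
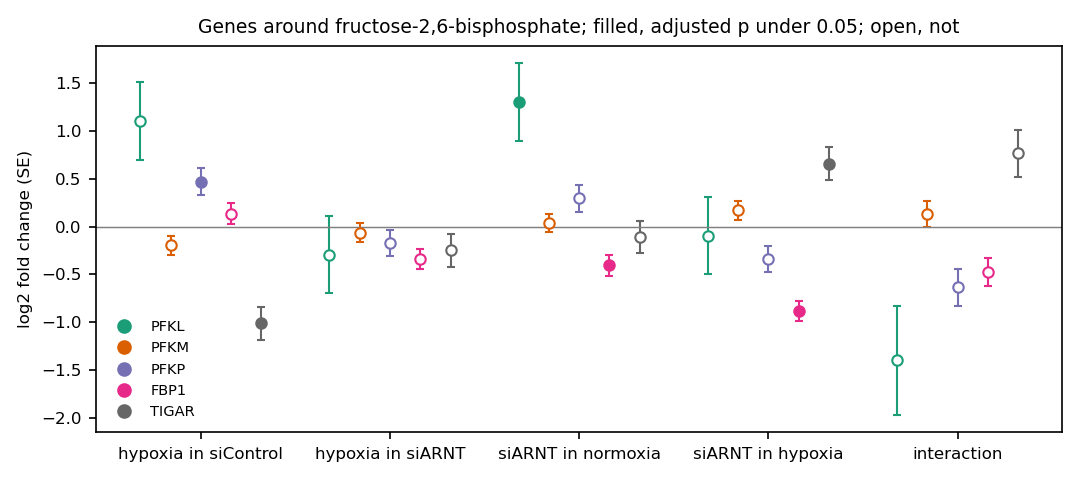
Log2 fold change of PFKL, PFKM, PFKP, FBP1 and TIGAR in the 5 comparisons, with bars of 1 SE; filled points passed an adjusted p under 0.05 in edgeR and open points did not. TIGAR has its lowest value in hypoxia siControl (-1.01), FBP1 is lower with siARNT at both oxygen levels (-0.41 and -0.88), and PFKL has the widest bars.

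A list of 19 genes whose products act on or downstream of PFKFB proteins (subunits of the kinases AMPK and PKA, AKT kinases and others) had 18 tested members. Hypoxia in control cells called 1 of 18 higher and 2 lower, where 25.3% of all tested genes were called, and 0 to 6 higher and 2 to 4 lower over the alternatives. These were PDPK1, the kinase upstream of AKT (0.25), and the AMPK subunits PRKAB1 (-0.33) and PRKAG1 (-0.40). The median log2 fold change was 0.02 over the 18 and 0.02 over all tested genes. In siARNT cells hypoxia called 0 of the 18 by edgeR, where 4.09% of all tested genes were called. Of the 18, 2 had an unadjusted p under 0.05 and 1 was called by DESeq2, with a median of -0.12 against -0.04. ARNT knockdown in hypoxia called 3 higher and 3 lower, with a median of -0.07 against 0.02, where 29.1% of all tested genes were called. Over the alternatives 1 to 4 were called higher and 2 to 8 lower. The higher ones were BTRC, a receptor subunit of a ubiquitin ligase (0.46), PRKACA, the PKA catalytic subunit (0.38), and PDPK1 (0.22). The lower ones were NCOA3, a transcriptional coactivator that PFKFB4 can phosphorylate (-0.34), and the AMPK subunits PRKAB2 (-0.34) and PRKAG2 (-0.31). Of these, PDPK1 lost its call in 6 of 21 alternatives, PRKACA in 4 and PRKAB2 in 2, and PDPK1 in hypoxia siControl in 2 of 22. In normoxia BTRC (0.45) and PDPK1 (0.23) were higher and NCOA3 (-0.47), PRKAG1 (-0.40) and PRKAB1 (-0.21) lower, where 20.2% of all tested genes were called. Over the alternatives 1 to 7 were called higher and 2 to 6 lower there, and PDPK1 lost its call in 11 of 21 and PRKAB1 in 9.

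The other glycolytic genes of the HIF target class, a list whose members are known to rise in hypoxia, give the setting for PFKFB3 and PFKFB4. All 16 were called higher in hypoxia in control cells (14 to 16 over the alternatives), with a median log2 fold change of 1.26 against 0.02 over all tested genes. PFKFB3 (0.85) lay below that median and PFKFB4 (3.51) above it. In siARNT cells 2 of 16 were called higher (median 0.05 against -0.04), ENO2 and LDHA, by 1.02 and 0.37. Knockdown in hypoxia called 10 of 16 lower (median -0.78 against 0.02), and the interaction was negative and called in 8 of 16 (median -1.18 against -0.02), which PFKFB4 exceeded in size and PFKFB3 did not. Over the alternatives those counts ran from 0 to 6, 9 to 16 and 7 to 15. Of all tested genes, 10.4% were called higher in hypoxia siControl and 4.09% were called in hypoxia in siARNT in either direction. With siARNT in hypoxia 14.7% were called lower, and 2.19% had a negative interaction that was called.

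The deposited splicing files held 5 events of the members: an alternative 3′ splice site and a pair of exon skips in PFKFB2, 1 exon skip in PFKFB3 and 1 in PFKFB4. Each event compares the reads of an inclusion form with those of an exclusion form, as the percent spliced in (PSI). Of the 4 events with enough reads, edgeR and limma called 0 in each of the 5 comparisons. Among all 44427 tested events edgeR called 0.00225% in hypoxia in siARNT and in siARNT in hypoxia and 0.0% in the other comparisons. It gave 1763 to 2734 at an unadjusted p under 0.05, and limma called 9 to 22 in a comparison. Of the members' events, 1 had an unadjusted p under 0.05 in edgeR, in siARNT against siControl in hypoxia, and 0 in the other comparisons. Positions are as the files give them. The submitters' processing notes name GRCh38.p10, but none of the event edges of these genes lies on a GENCODE 29 exon edge as printed. The printed PFKFB4 exon also lies before the PFKFB4 promoter window on the minus strand. The event positions are therefore not in the coordinates of the GRCh38.p14 promoter windows and cannot be set beside them. Which build they belong to is unresolved. After 1 constant shift per gene (173345, 41963 and 37433 bases), 9 of 11, 6 of 6 and 6 of 6 edges of PFKFB2, PFKFB3 and PFKFB4 lie on exon edges. That match by gene was used to name the exons.

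In PFKFB2 the alternative site lengthens an exon of 97 bases (chr1:207235965-207236061) to 170 bases. The shorter form, found in 3 protein-coding transcripts of GENCODE 29, had 1150 reads and the longer 14 over the 12 libraries, and its PSI was 97 to 100% in every library. Hypoxia siARNT had 0 reads of the longer form in all 3 libraries and 227 of the shorter, and hypoxia siControl had 6 and 270. That comparison had an unadjusted p of 0.0273 and an adjusted p of 0.826 in edgeR. The pair of exon skips concerns an exon of 85 bases (chr1:207234191-207234275) or 109 bases with the same end, both measured against the same skipping junction. With 65 and 58 inclusion reads against 792 skipping reads, their PSI was 2 to 6% in every library. The 85-base form had a PSI of 4, 2 and 3% in normoxia siControl and 5% in each normoxia siARNT library, and that comparison had an adjusted p of 0.907 in edgeR.

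The minor forms of PFKFB2 are shown up to their first in-frame stop, because each occurs in GENCODE 29 only in a transcript annotated for nonsense-mediated decay, the pathway that degrades RNA with an early stop. The sequences run 5′ to 3′ from the start of the alternative stretch, are taken from the GENCODE 29 transcripts, and have the stop codon in capitals.
PFKFB2-204, 85-base exon: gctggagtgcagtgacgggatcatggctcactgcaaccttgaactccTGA
PFKFB2-203, longer exon form: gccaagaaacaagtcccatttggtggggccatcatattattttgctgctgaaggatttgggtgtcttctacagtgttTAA

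The stop comes 50 bases into the extra exon of PFKFB2-204 and 80 bases into the longer exon of PFKFB2-203, counting the stop codon itself. The 109-base variant of the extra exon is not in GENCODE 29. The reads of these forms were few in every group, and no group had a PSI of the extra exon above 6%.

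In PFKFB3 the skipped exon has 174 bases (chr10:6268155-6268328) and is part of 14 GENCODE 29 transcripts, 9 of them protein coding. It was included in 459 reads and skipped in 20, with a PSI of 80 to 100% (median 94%). The inclusion reads were uneven, with 411 on the upstream junction and 48 on the downstream one. The downstream junction had fewer reads than skipping in libraries A (1 against 2) and C (0 against 5) of hypoxia siARNT. The same held in library A of normoxia siControl (2 against 3), and in every other library the downstream junction had more. Both the lowest PSI values, 80 and 82%, were in hypoxia siARNT, from 44 and 20 reads, but the third library of that group had 100% from 22 reads. The comparison of hypoxia siARNT with hypoxia siControl had an adjusted p of 0.93, and hypoxia in siARNT an unadjusted p of 0.101.

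In PFKFB4 the event is a 128-base exon (chr3:48585965-48586092) that GENCODE 29 holds only in 4 processed transcripts without a coding frame. It could not be tested, since the normoxia siControl libraries had 0 or 1 reads of it and the normoxia siARNT libraries 2 to 5. A PSI was deposited for 4 libraries, at 12, 8 and 14% in hypoxia siControl and 10% in library C of hypoxia siARNT. Skipping had 64 reads and inclusion 15 in hypoxia siControl, so most PFKFB4 junction reads over this stretch joined the flanking exons, which are part of protein-coding transcripts. Which form predominated in normoxia was not detectable at this depth.

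**Figure D5:**
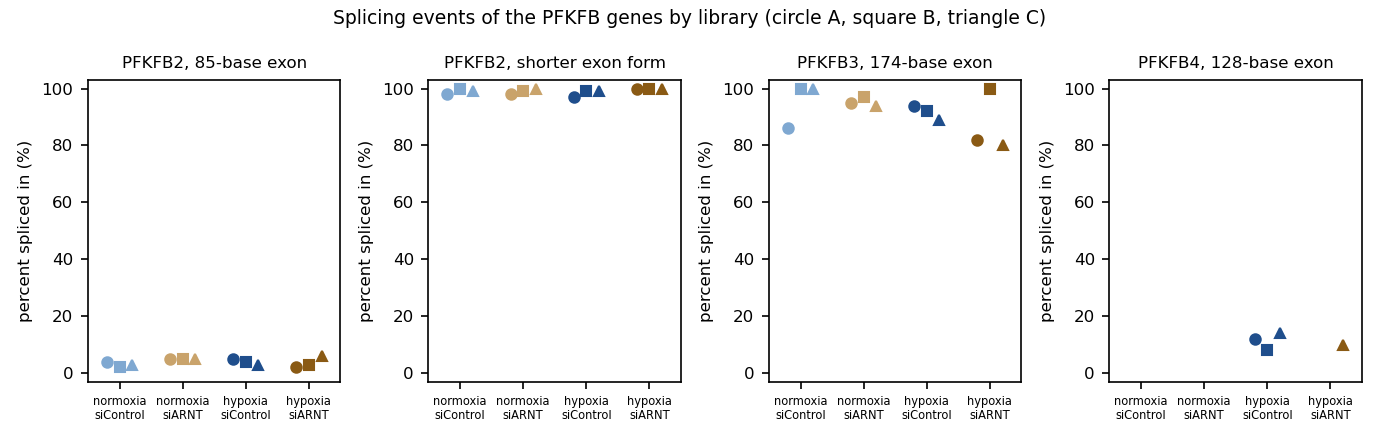
Percent spliced in (%) as deposited for 4 PFKFB events in each library of the 4 groups, with the letter given by the symbol; the 109-base variant is left out because it shares reads with the 85-base exon. By the deposited PSI, PFKFB2 and PFKFB3 keep 1 dominant form in every library (2 to 6%, 97 to 100% and 80 to 100%). For PFKFB3 this rests mostly on the upstream junction, with 411 inclusion reads against 48 on the downstream one. PFKFB4 has values only where the gene was high enough (8 to 14%).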

How the data were processed

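Poly(A) RNA of AsPC-1 cells was sequenced in 12 stranded, single-read libraries on 3 lanes, per the labels' protocols, and groups and letters were taken from the sample titles. Per the submitters' processing notes, reads were handled with Trimmomatic and STAR 2.4.2a on GRCh38.p10. The deposited gene files hold whole-number counts per gene ID, and the counter's version and settings are not given in the sources used here. Summary lines that name no gene held 22.71 to 25.2% of reads and were left out. Of the IDs, 51996 were paired with a symbol. The deposited event files hold, per the file headers, counts of reads on each junction, the mean coverage of exons as a signal, and a fraction for the PSI.

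Counts were tested with edgeR 4.0.16 in R 4.3.3 (TMM, filterByExpr, robust quasi-likelihood fit to all 12 libraries, Benjamini-Hochberg over all genes tested). Events with at least 10 reads in each library and 10 of each form were tested as inclusion against exclusion counts within a sample. Both scripts were run on simulated data. The simulated event shifts were put only in events of intermediate inclusion share. The members' tested events, each with a dominant form, lay outside that range. That run therefore does not show how well a shift in them would be found. Exon lengths and exon sequences are from GENCODE 29, promoters from RefSeq. The exons used by the submitters for counting are not given here and may differ from those of GENCODE 29, which bears on all values per kb. Alternatives were RLE and total count scaling, other filters, DESeq2, limma for events, GC correction, replicate blocks, only the samples compared, and leaving out each library. Replicate letters are not stated to mark a shared well. Named genes were the members, ARNT, the genes of the metabolite's node, called genes of the regulator list and the 5 nearest patterns per member. NDRG1 was singled out, and ENO2 and LDHA were named, after their values were seen. The members and lists were chosen with earlier results of these data known. Intervals were not drawn, since replicate spread is given, and counts carry no molecular identifiers.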

Additional observations from a re-analysis of the deposited data

Results flagged for a closer look

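The response of 2 members to hypoxia differed between the siRNA groups by the test of the difference itself. The interaction of PFKFB4 was -2.99 on the log2 scale (SE 0.394, adjusted p = 0.00153 in edgeR's quasi-likelihood test), from a hypoxia change of 3.51 in siControl and 0.52 in siARNT. The interaction of PFKFB3 was -0.84 (SE 0.137, adjusted p = 0.00602), from 0.85 and 0.01. Both calls held in all 21 alternatives, with adjusted p-values of 1.18e-12 to 0.00809 for PFKFB4 and 4.72e-06 to 0.0267 for PFKFB3.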

How the results depend on the processing

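The hypoxia calls of PFKFB3 and PFKFB4 in siControl, their lower levels with siARNT in hypoxia, their interactions and the normoxic PFKFB2 call held in every alternative run. PFKFB2 in hypoxia siControl was called with total count scaling (-0.25, adjusted p = 0.0131), the replicate letter as a block (-0.22, 0.0215), GC correction alone or with the block (-0.12, 0.0186 and 0.0158) and only the samples compared (-0.23, 0.0127), and ran from -0.27 to -0.17 with 1 library left out. PFKFB2 with siARNT in hypoxia lost its call with total count scaling (-0.16, 0.0782), no filter (-0.25, 0.055), DESeq2 (-0.24, 0.0612) and only the samples compared (-0.21, 0.0737), and ran from -0.30 to -0.19 with 1 library left out. The remaining members' results that moved were not called without GC correction: PFKFB3 in hypoxia siARNT (-0.004 with no filter, 0.20 with GC correction and block, -0.066 to 0.108 with 1 library left out), PFKFB4 there (0.66 and 0.67 with GC correction without and with the block), PFKFB3 with siARNT in normoxia (-0.51 and -0.51) and PFKFB4 there (-0.089 and -0.098, and -0.12 to 0.33 with 1 library left out). The cause was not tested.

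Without division by length the shares of PFKFB2 were 78.1, 75.0, 58.5 and 73.2% in siControl normoxia, siARNT normoxia, siControl hypoxia and siARNT hypoxia, those of PFKFB3 21.1, 23.9, 33.1 and 25.1%, and those of PFKFB4 0.849% in normoxia siControl and 8.38% in hypoxia siControl, since PFKFB2 has the longest exons. Counts of all called genes were 4299 for hypoxia in siControl (7457 with GC correction, 7690 with the block added), 696 for hypoxia in siARNT (3889, 4135, 136 with a block by well, 22 with only the samples compared, 129 to 707 with 1 library left out), 3431 for siARNT in normoxia (5702, 6005, 1571 to 4148), 4948 for siARNT in hypoxia (8053, 8227) and 797 for the interaction (3360, 3536, 373 with a block by well, 1495 with total count scaling, 272 to 1188). The share of called genes that were higher moved from 41.2 to 54.1% with GC correction for hypoxia in siControl, and with total count scaling from 53.9 to 65.8% for hypoxia in siARNT, 49.6 to 63.8% for siARNT in hypoxia and 53.2 to 75.3% for the interaction. With the filter of at least 1 CPM in 6 libraries it was 71.6% for hypoxia in siARNT and 63.9% for the interaction, with no filter 41.5% for the interaction, and with only the samples compared 68.2% for hypoxia in siARNT. Total count scaling put the median of all tested genes at 0.10 in siARNT in hypoxia, against 0.02. The letters did not pair the libraries by their deviations in all groups. Same-letter correlations ran from -0.43 to 0.52 within an siRNA, from -0.33 to 0.41 within an oxygen level and from -0.17 to 0.53 where both differ. Every negative same-letter value involved a hypoxia siARNT library, and without that group they ran from 0.07 to 0.53. Library C of hypoxia siARNT correlated with the B libraries of the other groups at 0.38, 0.63 and 0.49.

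Event values, none of them called, changed sign with limma for the 109-base PFKFB2 exon in hypoxia siControl (0.045), the PFKFB2 alternative site with siARNT in normoxia (0.056) and the PFKFB3 exon there (-0.032). With 1 library left out, the 109-base exon ran from -0.16 to 0.24 in hypoxia siControl, -0.067 to 0.364 in hypoxia siARNT and -0.072 to 0.395 in the interaction. The 85-base exon with siARNT in hypoxia ran from -0.59 to 0.24, and the alternative site with siARNT in normoxia from -0.87 to 0.99. The PFKFB3 exon ran from -3.25 to 0.20 in hypoxia siControl, -2.42 to 1.03 with siARNT in normoxia and -2.03 to 1.47 in the interaction. The members' events had 20 to 163 reads in a library where tested, which limits these values.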
